A study of Mus musculus with 6 samples.

Results

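The interferon regulatory factors are a family of transcription factors, and the genes described here are those whose symbol in the count table is Irf1, Irf2, Irf3, Irf4, Irf5, Irf7, Irf8 or Irf9. All 8 symbols were found among 40879 genes, and all 8 passed the filter on low counts. The libraries come from CD8 T cells that infiltrated MC38-hPD-L1 tumours, a mouse colon carcinoma line carrying human PD-L1, grown for 12 days in C57BL/6N mice. Cells near the tumour had been tagged with biotin by photocatalytic proximity labelling and were sorted into a Biotin+ group, labelled as tumour-neighbouring, and a Biotin- group, labelled as tumour-distal. Each group has 3 poly-A RNA libraries, with 16440614 to 19640693 counts per library in Biotin+ and 16423106 to 19035864 in Biotin-. The labels do not say whether the replicates are separate animals, so p-values measure the spread between these samples, which may be technical. Both groups come from the same kind of tumour and mouse strain, and no untreated or tumour-free cells are among them.

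All members share a DNA-binding domain that reads interferon response motifs. Irf1, Irf2 and Irf9 act downstream of interferon receptors, Irf3 and Irf7 are switched on by sensors of foreign nucleic acid and drive interferon genes, Irf5 works below Toll-like receptors, and Irf4 and Irf8 are the lymphoid and myeloid pair that bind DNA with partner factors. In T cells Irf4 rises with the strength of antigen receptor signalling, and Irf8 is induced by antigen and cytokines in CD8 T cells, while in other lineages it directs the development of dendritic cells and B cells.

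Irf8 was the member that rose in Biotin+, by 3.19-fold, and it was the most abundant of these members per exon length in those libraries. The other 7 tested members did not pass, with log2 fold changes between -0.40 for Irf1 and 0.36 for Irf3. In edgeR's quasi-likelihood test across all 13360 tested genes, Benjamini-Hochberg adjusted with the threshold at 0.05, 1 of 8 members was higher and 0 were lower, where 1.53% of all tested genes were higher and 6.72% lower. The lower count was also 0 at an unadjusted p under 0.05, with DESeq2 and with limma-voom. The median log2 fold change of the 8 members was 0.16, and that of all tested genes was 0.06.

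Promoter sequence is shown for Irf8 and Irf1, the most abundant members, because both genes carry a gamma-activated site, the motif TTCNNNGAA of promoters that respond to interferon gamma. The sequences are RefSeq's, on GRCm38.p6, both on the plus strand, and the capitals mark each match to the motif. The Irf8 window is chr8:120736158-120736257 and the Irf1 window is chr11:53769874-53769953, both upstream of the transcript start.
Irf8: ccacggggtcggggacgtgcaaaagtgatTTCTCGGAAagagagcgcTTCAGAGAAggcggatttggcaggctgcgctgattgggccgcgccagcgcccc
Irf1: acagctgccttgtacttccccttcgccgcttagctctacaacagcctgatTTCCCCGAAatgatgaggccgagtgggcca

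In windows of 300 bases around transcript starts, which were found for 8 members (11 windows), the motif stood at -171 and -153 in Irf8, at -90 in Irf1 and at -224 in Irf2. A further window of Irf8 and of Irf1, around another transcript start of each gene, held no match. The motif is present in 8.3% of all 32851 such windows, and it is its own reverse complement, so each match counts once. The interferon-stimulated response element core GAAANNGAA, searched on both strands, was found in 1 member window, that of Irf2, against 8.56% of all windows. The Ets and IRF composite core GGAANNGAA, where Irf4 and Irf8 bind with an Ets partner, was also found in the Irf2 window alone, where it overlaps the response element, against 8.24% of all windows. A match is a description of the letters and not of binding, and no binding data were used here.

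Values for each library are given as CPM, counts scaled to library size, after TMM scaling, which corrects for differences in library composition. Irf8 had 951, 1481 and 1522 CPM in Biotin+ replicates 1, 2 and 3, against 389, 545 and 304 CPM in Biotin- replicates 1, 2 and 3. Every Biotin+ library lay above every Biotin- library, and the gap was narrowest between Biotin+ replicate 1 and Biotin- replicate 2. Irf8 averaged 1318 ± 318 CPM in Biotin+ cells and 413 ± 122 CPM in Biotin- cells (SD, n = 3 each), a log2 fold change (log2FC) of 1.67 ± 0.28 (SE, 95% interval 1.05 to 2.30, edgeR adjusted p = 0.00837). Between libraries with the same replicate number, the log2 difference was 1.29, 1.44 and 2.32 for numbers 1, 2 and 3. In bulk RNA, fewer expressing cells and less RNA per cell cannot be told apart.

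Leaving out any 1 of the 6 libraries did not remove the Irf8 call. Its log2 fold change then lay between 1.49 and 1.87 and its edgeR adjusted p between 0.01 and 0.0476, with the highest p without Biotin- replicate 3. Scaled to 15 genes of CD8 T cell identity in place of TMM, Irf8 still passed with a log2 fold change of 0.95 (edgeR adjusted p = 0.0137). That scaling lowered the median log2 fold change of all tested genes by 0.75, to -0.69. Under it 0.187% of all tested genes were higher and 29.4% lower, and among the members Irf8 was higher and Irf1 and Irf7 were lower.

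Irf4, the paralog nearest to Irf8 in partner use and the one tied to antigen receptor signalling in T cells, had 47.8, 87.3 and 89.6 CPM in Biotin+ replicates 1 to 3, against 42.5, 86.3 and 57.0 CPM in Biotin-. The groups overlapped, and replicate 1 was the lowest library in both. Irf4 averaged 74.9 ± 23.5 CPM in Biotin+ cells and 62.0 ± 22.3 CPM in Biotin- cells (SD, n = 3 each, log2FC 0.27 ± 0.31 SE, 95% interval -0.41 to 0.95, edgeR adjusted p = 0.651). With the CD8 identity scaling the log2 fold change was -0.47.

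**Figure D1:**
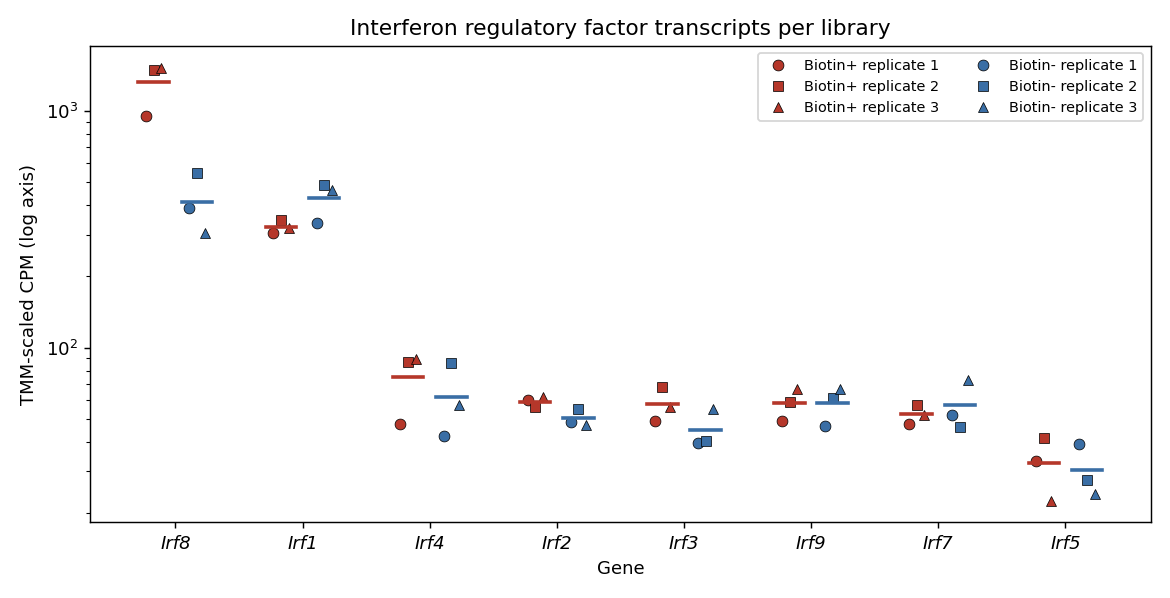
TMM-scaled CPM on a log axis for the 8 tested interferon regulatory factors. Each symbol is 1 library, red for Biotin+ and blue for Biotin-, with the shape giving the replicate number and the bar the mean of 3 libraries. The Irf8 values of 951 to 1522 CPM in Biotin+ lie above the 304 to 545 CPM in Biotin-, whereas every other member except Irf2 overlaps between groups.

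Irf1, an activator induced by interferon gamma, had 306, 346 and 320 CPM in Biotin+ replicates 1 to 3, against 336, 487 and 464 CPM in Biotin-. Biotin- replicate 1 fell inside the Biotin+ range, so the groups overlapped. Irf1 averaged 324 ± 20.1 CPM in Biotin+ cells and 429 ± 81.5 CPM in Biotin- cells (SD, n = 3 each, log2FC -0.40 ± 0.21 SE, 95% interval -0.87 to 0.06, edgeR adjusted p = 0.289). Its log2 difference was negative for all 3 replicate numbers, at -0.13, -0.50 and -0.53.

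The Irf1 call depended on the scaling. With the CD8 identity scaling Irf1 was lower, with a log2 fold change of -1.17 (edgeR adjusted p = 0.0068), beside a median of -0.69 over all tested genes under the same scaling. Its log2 fold change was negative under all 16 alternatives, and it passed in 2 of them, both with the identity scaling.

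Irf2, which binds the same motifs and mostly opposes Irf1, had 59.9, 55.9 and 61.7 CPM in Biotin+, against 48.7, 55.2 and 47.0 CPM in Biotin-. The ranges did not overlap, though Biotin+ replicate 2 and Biotin- replicate 2 almost met. The log2 fold change was 0.23 ± 0.18 (SE, 95% interval -0.17 to 0.64, edgeR adjusted p = 0.49) and it became -0.51 with the CD8 identity scaling. Irf2 and Irf8 were the 2 members whose group ranges did not overlap, both higher in Biotin+. Such a gap, higher in Biotin+, was present in 13.4% of all tested genes, and 15.9% had one with lower values in Biotin+.

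Irf9, the DNA-binding part of the interferon-activated ISGF3 complex, had 48.8, 58.8 and 66.7 CPM in Biotin+, against 46.6, 61.4 and 66.6 CPM in Biotin-. Both groups spanned nearly the same range, and libraries with the same number had similar values, with log2 differences of 0.07, -0.06 and 0.00. The log2 fold change was 0.00 ± 0.21 (SE, 95% interval -0.48 to 0.47, edgeR adjusted p = 0.997).

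Among the members activated by nucleic acid sensing, Irf3 had 49.0, 68.2 and 56.4 CPM in Biotin+, against 39.7, 40.1 and 55.0 CPM in Biotin-. All 3 same-numbered differences were positive, at 0.31, 0.76 and 0.04, and the groups overlapped through Biotin- replicate 3. The log2 fold change was 0.36 ± 0.22 (SE, 95% interval -0.12 to 0.85, edgeR adjusted p = 0.366) and turned to -0.44 with the CD8 identity scaling. Irf7, the interferon-inducible amplifier of interferon alpha genes, had 47.8, 57.3 and 52.1 CPM in Biotin+, against 52.1, 46.1 and 72.8 CPM in Biotin-. Its groups overlapped, its same-numbered differences had mixed signs and the log2 fold change was -0.12 ± 0.22 (SE, 95% interval -0.61 to 0.36, edgeR adjusted p = 0.796). With the CD8 identity scaling Irf7 was lower at -0.92 (edgeR adjusted p = 0.0403).

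Irf5, known mainly from myeloid cells, had 33.2, 41.5 and 22.6 CPM in Biotin+, against 39.3, 27.7 and 24.2 CPM in Biotin-. The order of the libraries differed between the groups and the log2 fold change was 0.09 ± 0.28 (SE, 95% interval -0.52 to 0.71, edgeR adjusted p = 0.882), with a negative value under library size or CD8 identity scaling. Of its annotated exon bases 14.1% overlap Tnpo3 on the other strand, and the strand setting of the counting is not given in the sources used here. Irf5 counts are therefore uncertain, and the share of its reads affected is not known. For the other 7 members the overlap with another gene was at most 3.4%, and it was 0 for Irf2, Irf4 and Irf8.

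**Figure D2:**
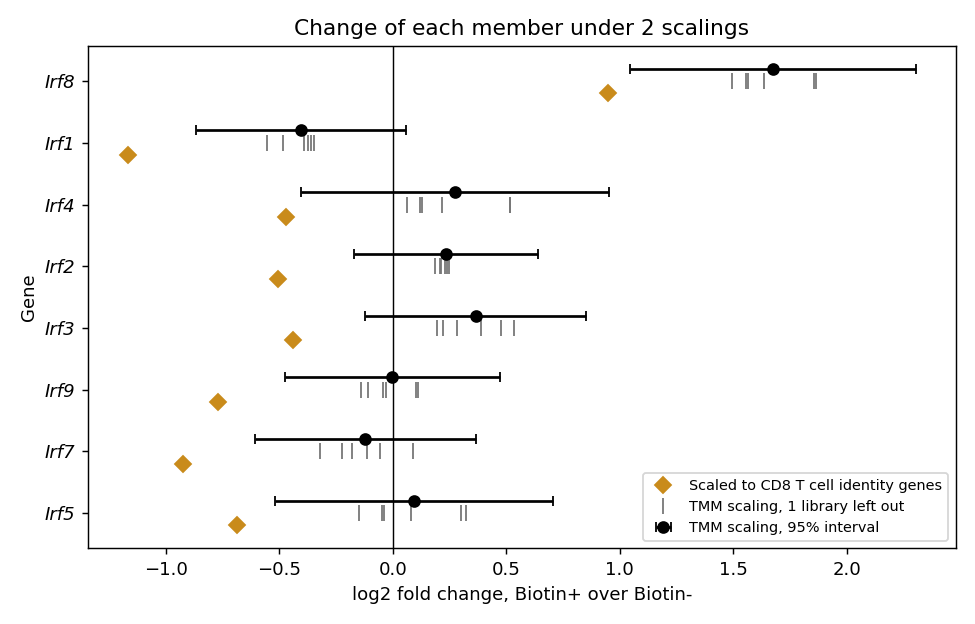
Log2 fold change of each tested member, Biotin+ over Biotin-. Black circles and bars give the TMM-scaled estimate with its 95% interval, grey ticks the estimates with 1 library left out, and diamonds the estimate when libraries are scaled to CD8 T cell identity genes. The Irf8 interval of 1.05 to 2.30 lies clear of 0, the other 7 cross it, and under the identity scaling Irf8 keeps a positive value of 0.95 while the rest are negative.

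The calls of the members did not change when the replicate number was added to the model as a block. The Irf8 log2FC was then 1.68 ± 0.21 (SE, edgeR adjusted p = 2.97e-05), and 0 members were lower, where 5.6% of all tested genes were higher and 12% lower. When the block was combined with the CD8 identity scaling, which was added after seeing the values, Irf8 was higher and Irf1, Irf2, Irf5, Irf7 and Irf9 were lower. The share of all tested genes called in that joined fit was not counted. The identity scaling alone called 29.4% of all tested genes lower.

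Levels were compared between members as CPM per kilobase of annotated exon. In Biotin+ the order was led by Irf8 at 187 ± 45.1, followed by Irf1 at 81.5 ± 5.05 (SD, n = 3). In Biotin- it was led by Irf1 at 108 ± 20.5, followed by Irf8 at 58.5 ± 17.3 (SD, n = 3). These 2 members did not overlap within either group, so by this measure their order was reversed between the groups. The reversal rests on the annotated exon lengths, 7055 bases for Irf8 and 3976 for Irf1. In counts without that division, Irf8 exceeded Irf1 in Biotin- replicates 1 and 2 (7998 against 6902 and 9940 against 8885). It was below Irf1 in Biotin- replicate 3 (5627 against 8577). Irf3, Irf4, Irf7, Irf5 and Irf9 lay between 10.8 and 16.8 on average in Biotin+ and between 10.5 and 15.1 in Biotin-, with neighbours in the order overlapping. Irf2 was below them on average, at 8.0 ± 0.40 in Biotin+ cells and 6.80 ± 0.59 in Biotin- cells (SD, n = 3 each). In Biotin+ it overlapped Irf5, which had 7.78 in replicate 3, against 8.10 and 8.34 for Irf2 in replicates 1 and 3.

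As a share of the reads per exon length of these 8 genes, a quantity that does not depend on how libraries are scaled, Irf8 took 48.7%, 54.9% and 57.8% in Biotin+ replicates 1 to 3, against 27.3%, 28.7% and 18.5% in Biotin-. Irf1 took 27.8%, 22.7% and 21.6% in Biotin+, against 41.7%, 45.4% and 49.9% in Biotin-. Neither share overlapped between the groups. The shares of a library add up to the whole, so a larger Irf8 share lowers the others. The Irf1 CPM itself overlapped between the groups and did not pass, as given above. The remaining members together made up the smaller part in both.

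**Figure D3:**
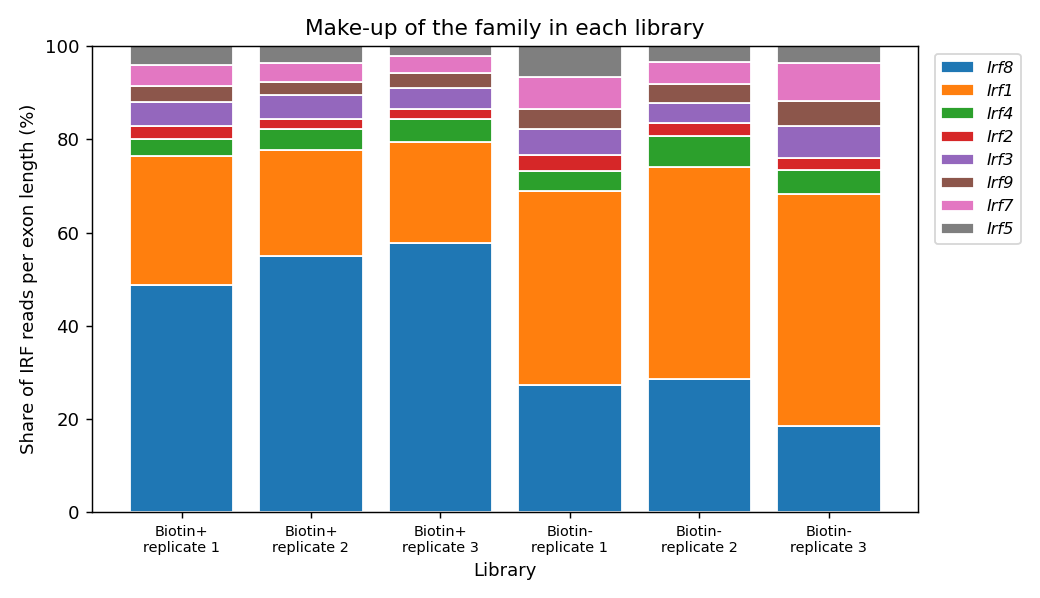
Share of each member in the reads per exon length of the 8 members in each library, in percent, stacked by member, with the 3 Biotin+ libraries on the left. Irf8 fills 48.7% to 57.8% of each Biotin+ library and 18.5% to 28.7% of each Biotin- library, whereas Irf1 fills 21.6% to 27.8% of each Biotin+ library and 41.7% to 49.9% of each Biotin- library.

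Ratios of members inside a library were compared by an exact two-sided permutation test over the 6 libraries, which cannot give a p below 0.1, for 6 pairs. The Irf8 over Irf4 ratio per exon length was 13.8, 11.8 and 11.8 in Biotin+ replicates 1 to 3, against 6.36, 4.39 and 3.71 in Biotin-. The groups did not overlap, and the mean log2 ratio differed by 1.41 (exact permutation p = 0.1, adjusted over the 6 pairs p = 0.15). Irf8 over Irf1 was 1.75, 2.41 and 2.68 in Biotin+, against 0.653, 0.63 and 0.37 in Biotin- (log2 difference 2.07, exact permutation p = 0.1, adjusted p = 0.15). All 3 Biotin+ libraries thus had more Irf8 than Irf1 per exon length, and all 3 Biotin- libraries had less.

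The pairs among the remaining members differed by less. Irf7 over Irf3 was 0.888, 0.765 and 0.842 in Biotin+, against 1.20, 1.05 and 1.21 in Biotin-, and the groups did not overlap (log2 difference -0.47, exact permutation p = 0.1, adjusted p = 0.15). Irf9 over Irf1 did not overlap either, with a log2 difference of 0.39 (exact permutation p = 0.1, adjusted p = 0.15). Irf4 over Irf1 and Irf7 over Irf1 overlapped between the groups, with log2 differences of 0.67 and 0.29 (exact permutation p = 0.2 for each, adjusted p = 0.2).

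Relative to Cd8a, the coreceptor gene that defines the population, chosen for this after the data were seen, the number of Irf8 reads per Cd8a read was 0.776, 1.15 and 1.31 in Biotin+ replicates 1 to 3, against 0.658, 0.63 and 0.606 in Biotin-. The groups did not overlap, and Biotin+ replicate 1 came close to Biotin- replicate 1. Irf1 reads per Cd8a read were 0.25, 0.268 and 0.276 in Biotin+, against 0.568, 0.563 and 0.924 in Biotin-, again without overlap. Irf4 reads per Cd8a read were 0.039, 0.0677 and 0.0771 in Biotin+, against 0.0719, 0.0998 and 0.114 in Biotin-, and these overlapped. The share of all tested genes without overlap per Cd8a read was not counted. Cd8a itself was called higher in Biotin+, at 1226 ± 63.6 CPM in Biotin+ cells and 653 ± 189 CPM in Biotin- cells (SD, n = 3, log2FC 0.91 ± 0.24 SE, edgeR adjusted p = 0.0467), and that difference enters each of these quotients.

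Several members are also transcribed in other cells, so markers of such cells were read in the same libraries. The 15 CD8 identity genes summed to 8327 to 10941 CPM in Biotin+ and 4371 to 6330 CPM in Biotin-, with positive log2 fold changes for all 15 and 5 called higher, or 12 with the block. Of 12 macrophage and monocyte markers, 12 had negative log2 fold changes and 0 passed in edgeR, with 3 of them lower at an unadjusted p under 0.05, 1 lower with DESeq2 and 0 with limma-voom. With the block 4 were lower, namely Mrc1, Adgre1, Itgam and Lyz2 (edgeR adjusted p = 4.6e-05, 0.00303, 0.00605 and 0.017). The sum of the 12 markers was 372 to 1081 CPM in Biotin+ and 827 to 2901 CPM in Biotin-. Over all tested genes the block called 5.6% higher and 12% lower, and edgeR without it called 1.53% higher and 6.72% lower.

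Dendritic cell markers, 12 genes with MHC class II among them, summed to 578 to 1468 CPM in Biotin+ and 562 to 1494 CPM in Biotin-, so the groups overlapped. Of 10 tested, 7 had positive and 3 had negative log2 fold changes (median log2FC 0.12). In edgeR 0 passed, with 1 lower at an unadjusted p under 0.05, 1 lower with DESeq2 and 0 with limma-voom. With the block 1 was lower, Siglech, a receptor of plasmacytoid dendritic cells, at 3.36 CPM in Biotin+ cells and 11.0 CPM in Biotin- cells (log2FC -1.71, edgeR adjusted p = 0.106, and 0.00374 with the block). Xcr1, a receptor of the dendritic subset that needs Irf8, was chosen after its values were seen, and averaged 7.62 CPM in Biotin+ cells and 4.72 CPM in Biotin- cells with overlapping groups (log2FC 0.69, edgeR adjusted p = 0.375). By library the dendritic sum was 1468, 1062 and 578 CPM in Biotin+ replicates 1 to 3, against 1494, 562 and 1101 CPM in Biotin-.

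Defining B cell genes were near 0: Cr2 had no count in any library and Ms4a1 had at most 1 in either group. The 10 B cell genes summed to 52.4 to 65.0 CPM in Biotin+ and 52.9 to 93.5 CPM in Biotin-, mostly Ighm, and Ebf1 was the only 1 of 3 tested to be called, as lower. Fibroblast and endothelial markers summed to 239 to 472 CPM in Biotin+ and 1439 to 1924 CPM in Biotin-, with 7 of 11 tested called lower and Fap at 0 in Biotin+. For all tested genes the called shares were 1.53% higher and 6.72% lower, or 5.6% and 12% with the block. Neutrophil markers summed to 6.84 to 20.4 CPM in Biotin+ and 9.60 to 13.1 CPM in Biotin-, with Ly6g at 0 in Biotin+ and at most 2 counts in Biotin-. Of 4 tested, 3 had positive values and 0 passed in edgeR, with 1 lower at an unadjusted p under 0.05 and 0 with DESeq2 or limma-voom (median log2FC 0.90). Markers of NK and gamma delta T cells summed to 26.9 to 80.7 CPM in Biotin+ and 33.8 to 72.9 CPM in Biotin-. Of 4 tested, Klra4, an NK cell receptor gene, was lower at 4.36 CPM in Biotin+ cells and 17.5 CPM in Biotin- cells (log2FC -2.0, edgeR adjusted p = 0.00883). Klrb1c, which encodes NK1.1, averaged 18.3 CPM in Biotin+ cells and 6.97 CPM in Biotin- cells, and in edgeR it passed as higher only with the block (edgeR adjusted p = 0.159, and 0.000758 with the block). Among these 4 genes, 1 was higher at an unadjusted p under 0.05, 1 with DESeq2 and 0 with limma-voom, and 1 was lower in each of these. Epithelial and tumour markers summed to 23.4 to 136 CPM in Biotin+ and 14.2 to 56.8 CPM in Biotin-, with Krt7 at 0 in all libraries and Krt8, Krt19 and Cldn4 at 0 in Biotin+. Most of that sum was Cdh1, the gene of E-cadherin, at 56.3 ± 62.7 CPM in Biotin+ cells and 27.2 ± 22 CPM in Biotin- cells (SD, n = 3, edgeR adjusted p = 0.506, and 0.0361 with the block). Krt18 averaged 0.728 CPM in Biotin+ cells and 0.195 CPM in Biotin- cells, and Cldn7 averaged 0.224 CPM in Biotin+ cells with 0 counts in Biotin-. The CD4 T cell markers summed to 30.5 to 41.2 CPM in Biotin+ and 30.1 to 51.3 CPM in Biotin-, and Cd4 itself averaged 1.22 CPM in Biotin+ cells and 3.67 CPM in Biotin- cells. The part of these cell types in the values of the members was not tested.

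The genes around the family were read from lists written with earlier results of these data known. Upstream of Irf3 and Irf7, 0 of 20 genes of nucleic acid sensing and its kinases passed in edgeR. At an unadjusted p under 0.05 there were 2 higher and 2 lower genes, with 1 lower with DESeq2 and 0 with limma-voom (median log2FC 0.07). The sensor genes pointed both ways. Cgas, which encodes the cytosolic DNA sensor, averaged 22.3 ± 3.53 CPM in Biotin+ cells and 13.0 ± 2.56 CPM in Biotin- cells (SD, n = 3, log2FC 0.78 ± 0.25 SE, edgeR adjusted p = 0.0924, and 0.0252 with the replicate block). Ifih1, an RNA sensor, averaged 6.03 ± 1.86 CPM in Biotin+ cells and 11.0 ± 1.03 CPM in Biotin- cells (SD, n = 3, log2FC -0.86 ± 0.32 SE, edgeR adjusted p = 0.133, and 0.0386 with the block).

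Tlr3, the endosomal RNA receptor, was near the detection limit at 0.361 CPM in Biotin+ cells and 2.40 CPM in Biotin- cells (edgeR adjusted p = 0.0625, and 0.0107 with the block). Mavs, the adaptor of the RNA sensors, had a log2 fold change of 0.48 (edgeR adjusted p = 0.193), which was -0.29 with the CD8 identity scaling. Of the 20 genes 1 was higher and 2 were lower with the block, and 7 were lower with the identity scaling. For all tested genes the shares were 5.6% higher and 12% lower with the block, and 29.4% lower with the identity scaling.

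Of 10 interferon receptor, JAK and STAT genes, 1 was lower and 9 were not called (median log2FC 0.17). The share of all tested genes called lower was 6.72%. The lower gene was Ifngr2, the signalling chain of the interferon gamma receptor, at 9.55 ± 0.37 CPM in Biotin+ cells and 21.7 ± 3.98 CPM in Biotin- cells (SD, n = 3, log2FC -1.19 ± 0.25 SE, edgeR adjusted p = 0.018). It was no longer called when Biotin+ replicate 2, Biotin- replicate 1 or Biotin- replicate 3 was left out (edgeR adjusted p = 0.0506, 0.0688 and 0.106). Ifngr1, the ligand-binding chain, averaged 881 ± 171 CPM in Biotin+ cells and 606 ± 153 CPM in Biotin- cells (SD, n = 3) and did not pass (log2FC 0.54, edgeR adjusted p = 0.241).

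With the block Ifngr1 passed (edgeR adjusted p = 0.0467), as did Tyk2 and Stat3, a kinase of interferon and cytokine receptors and a cytokine-activated factor, whose log2 fold changes without it were 0.66 (edgeR adjusted p = 0.0705) and 0.61 (edgeR adjusted p = 0.17). The block called 5.6% of all tested genes higher. With the CD8 identity scaling Ifngr1, Tyk2 and Stat3 had log2 fold changes of -0.18, -0.11 and -0.10.

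**Figure D4:**
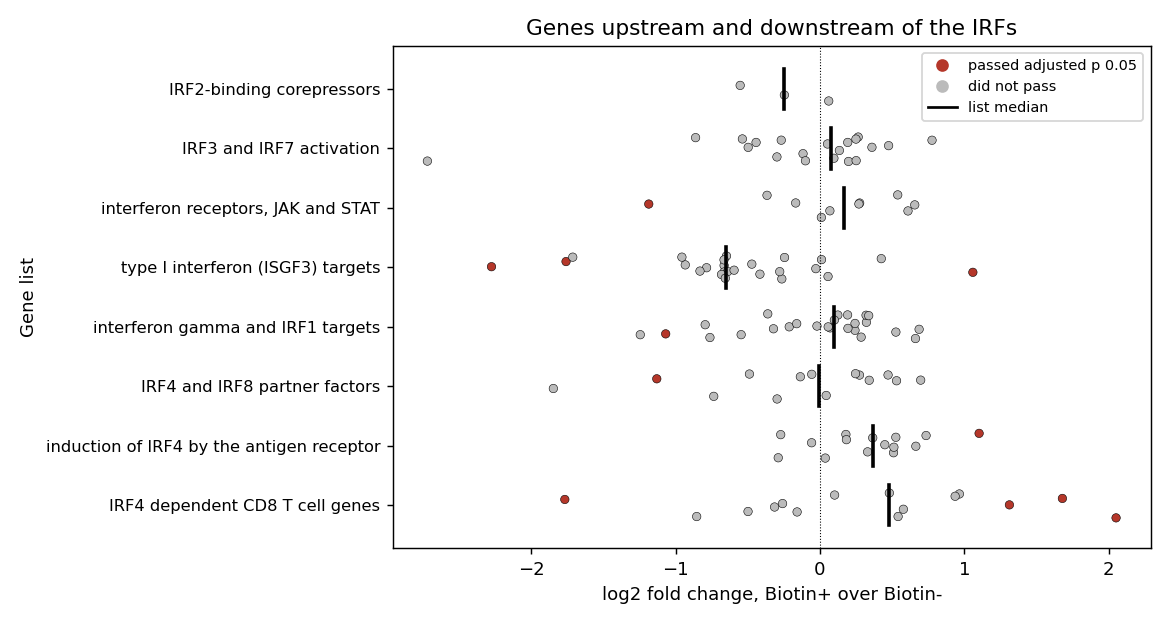
Log2 fold change, Biotin+ over Biotin-, of every tested gene in 8 lists around the family. Each point is 1 gene, red where it passed an adjusted p of 0.05, and the black bar is the list median. The type I interferon targets have the lowest median (-0.65) and the IRF4 dependent genes the highest (0.48), and most points of every list are grey.

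Targets of ISGF3, the complex that holds Irf9, had a median log2 fold change of -0.65, the lowest of the 8 lists, beside 0.06 for all tested genes. Of 25 genes, 2 were lower and 1 was higher in the test, 22 were not called, and the log2FC was negative for 21. For all tested genes the called shares are the 6.72% lower and 1.53% higher given above. Oasl2, an antiviral synthetase-like gene, averaged 4.45 ± 1.53 CPM in Biotin+ cells and 15.1 ± 4.67 CPM in Biotin- cells (SD, n = 3, log2FC -1.76 ± 0.37 SE, edgeR adjusted p = 0.018). Oas2, which makes the second messenger of RNase L, averaged 1.34 ± 0.75 CPM in Biotin+ cells and 6.52 ± 3.35 CPM in Biotin- cells (SD, n = 3, log2FC -2.27 ± 0.56 SE, edgeR adjusted p = 0.0337). Isg20, an exonuclease gene, was the higher member at 54.9 ± 17.5 CPM in Biotin+ cells and 26.4 ± 5.33 CPM in Biotin- cells (SD, n = 3, log2FC 1.06 ± 0.27 SE, edgeR adjusted p = 0.0397).

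Oasl2 lost its call without Biotin+ replicate 2 (log2FC -1.53) or Biotin- replicate 3 (-1.48). Oas2 lost it without either of these (-1.95 and -1.80) or without Biotin- replicate 2 (-2.43). Isg20 lost it when any 1 library except Biotin+ replicate 3 was left out, with a log2FC of 0.82 to 1.21 in those 5 fits. With limma-voom neither Oas2 (adjusted p = 0.101) nor Isg20 (adjusted p = 0.0786) passed, and Isg20 was also lost with library size alone and with the CD8 identity scaling. Ifit1, an interferon-induced RNA-binding protein gene, had a log2 fold change of -0.79 (edgeR adjusted p = 0.0756, and 0.0319 with the block). With the block 4 were lower and 1 higher, where 12% of all tested genes were lower, and with the CD8 identity scaling 17 were lower and 0 higher, where 29.4% of all were lower. The macrophage markers had a median log2FC of -1.02 and the fibroblast and endothelial markers one of -2.29, and their part in this list was not tested.

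Of 25 targets of interferon gamma and Irf1, 1 was lower and 24 did not pass (median log2FC 0.10). Among all tested genes 6.72% were lower. The lower gene was Cxcl10, a chemokine that draws T cells, at 60.1 ± 6.54 CPM in Biotin+ cells and 126 ± 21.5 CPM in Biotin- cells (SD, n = 3, log2FC -1.07 ± 0.20 SE, edgeR adjusted p = 0.0123), and it lost the call without Biotin- replicate 3 (edgeR adjusted p = 0.0658). The immunoproteasome genes Psmb8 and Psmb9 had log2 fold changes of 0.66 and 0.69 (edgeR adjusted p = 0.0994 and 0.155), which were -0.14 and -0.13 with the CD8 identity scaling. Gbp2, a GTPase of cell-autonomous defence, averaged 83.2 ± 42.9 CPM in Biotin+ cells and 197 ± 140 CPM in Biotin- cells (SD, n = 3, log2FC -1.24, edgeR adjusted p = 0.157, and 0.000503 with the block), and its log2FC was -0.48 without Biotin- replicate 3. With the block 2 genes of the list were higher and 3 lower, where 5.6% of all tested genes were higher and 12% lower.

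Among 14 partner factors of Irf4 and Irf8, 1 was lower and 13 did not pass (median log2FC -0.01). The share called lower among all tested genes was 6.72%. Jun, which joins Irf4 and Irf8 through Batf proteins, averaged 270 ± 34.7 CPM in Biotin+ cells and 590 ± 99.2 CPM in Biotin- cells (SD, n = 3, log2FC -1.13 ± 0.21 SE, edgeR adjusted p = 0.0128), and it lost the call without Biotin- replicate 3. Batf2, a further Batf family member, averaged 2.17 ± 1.02 CPM in Biotin+ cells and 7.83 ± 6.68 CPM in Biotin- cells (SD, n = 3, log2FC -1.85, edgeR adjusted p = 0.0995, and 0.0049 with the block), and its log2FC was -0.89 without Biotin- replicate 3. Ikzf3 and Jund, a lymphoid zinc finger factor and a Jun relative, had log2 fold changes of 0.70 and 0.53 (edgeR adjusted p = 0.135 and 0.237), both of which were negative with the CD8 identity scaling.

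Genes that carry the antigen receptor signal to Irf4 had a median log2 fold change of 0.37, and 1 of 15 genes was called higher. Among all tested genes 1.53% were called higher. Zap70, the kinase recruited to the receptor, averaged 583 ± 134 CPM in Biotin+ cells and 272 ± 17.7 CPM in Biotin- cells (SD, n = 3, log2FC 1.10 ± 0.22 SE, edgeR adjusted p = 0.0161), and it lost the call without Biotin- replicate 1 or 3 and with the CD8 identity scaling (log2FC 0.33). Lck and Lat, a kinase and an adaptor of the same pathway, had log2 fold changes of 0.73 and 0.53 without passing, and both passed with the block (edgeR adjusted p = 0.00802 and 0.0419). With the CD8 identity scaling 3 members were lower, 0 were higher and Lck and Lat had values of -0.04 and -0.25. Of all tested genes 29.4% were lower with it. Zap70, Lck and Lat also belong to the identity genes used for that scaling.

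Of 15 genes that depend on Irf4 in CD8 T cells, 3 were called higher, 1 was called lower and 11 were not called (median log2FC 0.48). Among all tested genes 1.53% were higher and 6.72% lower. The higher genes were Gzmb, a cytotoxic granule protease (2.05 ± 0.33 SE), Pdcd1, which encodes PD-1 (1.68 ± 0.40 SE), and Havcr2, which encodes TIM-3 (1.31 ± 0.32 SE), with edgeR adjusted p of 0.00785, 0.0299 and 0.0335. Tcf7, the factor of stem-like T cells that Irf4 restrains, was lower by 1.77 on the log2 scale (log2FC -1.77 ± 0.19 SE, edgeR adjusted p = 0.00442). The list is thus not limited to genes that Irf4 raises, so its median does not measure Irf4 activity. Gzmb and Tcf7 kept their calls without each library in turn. Pdcd1 lost its call when Biotin+ replicate 2 or either of Biotin- replicates 1 and 3 was left out, and Havcr2 when any of these or Biotin+ replicate 3 was. Havcr2 was also lost with library size alone (log2FC 1.12, edgeR adjusted p = 0.0715) and with the CD8 identity scaling (log2FC 0.60, edgeR adjusted p = 0.138). Irf4 itself did not pass in the same fit. With the block 6 of the 15 were higher and 2 lower, and with the CD8 identity scaling 2 were higher and 6 lower. For all tested genes these shares were 5.6% and 12% with the block, and 0.187% and 29.4% with the identity scaling. The higher count was 1 when any of the 3 libraries named for Pdcd1 was left out, and 5 without Biotin- replicate 2.

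The corepressors that bind Irf2 showed no call among 3 genes in edgeR, with 0 at an unadjusted p under 0.05 in either direction and 0 with DESeq2 or limma-voom. Irf2bp2 averaged 123 ± 48.7 CPM in Biotin+ cells and 180 ± 16.9 CPM in Biotin- cells (SD, n = 3, log2FC -0.55, edgeR adjusted p = 0.25, and 0.0443 with the block), and it was lower without Biotin+ replicate 1 (log2FC -0.92, edgeR adjusted p = 0.0355). Irf2bp1 had a log2 fold change of -0.25, and Irf2bpl one of 0.06 that turned negative under 3 of the 4 other scalings.

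The genes whose profile over the 6 libraries was closest to that of Irf8 were sought among 8456 genes with a mean of at least 10 CPM, by the root mean square difference of log2 CPM after each gene's mean was subtracted. They were Tmem163, a zinc transporter gene (0.123), Prf1, which encodes perforin (0.159), Tnfrsf9, the costimulatory receptor 4-1BB (0.159), P2ry14, a receptor for UDP sugars (0.217), and Igflr1, a receptor of the tumour necrosis factor receptor family (0.23). Their own log2 fold changes were 1.58, 1.65, 1.46, 1.44 and 1.59. All of them thus differed between the groups by about as much as Irf8, and the 6 libraries share depth and scaling.

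**Figure D5:**
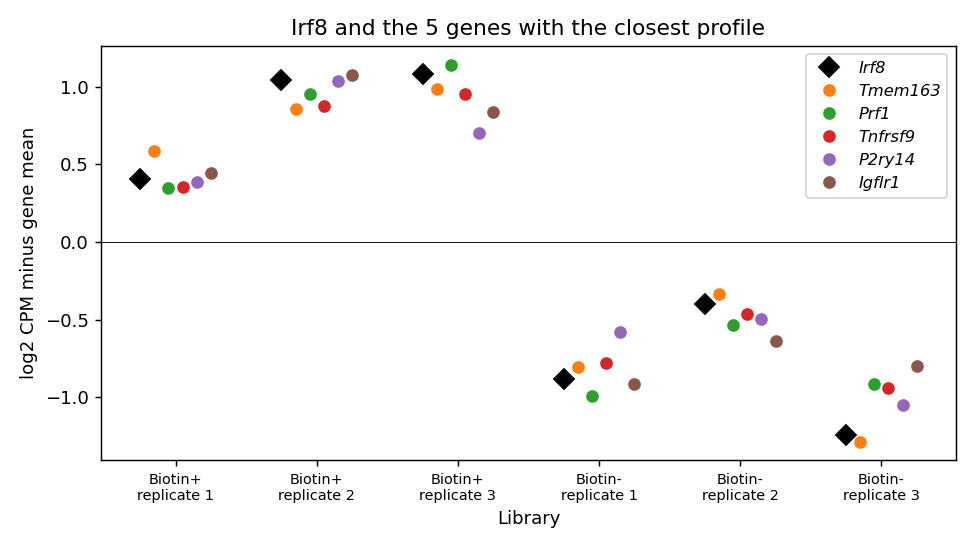
Log2 CPM minus each gene's own mean for Irf8 (black diamonds) and its 5 closest genes in each library, with the 3 Biotin+ libraries on the left. All 6 genes are above their mean in every Biotin+ library, least in replicate 1, and below it in every Biotin- library.

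For Irf4 the closest profiles were those of the chaperone genes Hspd1 (0.119) and Hsp90aa1 (0.131), the interleukin 18 receptor gene Il18r1 (0.142), Tmem41b (0.146) and Tbce (0.149), a tubulin folding cofactor. For Irf7 they were Dtx2 (0.0531), a Deltex ubiquitin ligase, Rabggta (0.0566), a prenyltransferase subunit, S100a11 (0.064), a calcium-binding protein, Pusl1 (0.0698) and Nudt3 (0.076). The log2 fold changes of these 10 genes lay between -0.16 and 0.37.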

How the data were processed

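Poly-A RNA was sequenced from 3 Biotin+ and 3 Biotin- samples, grouped by their titles. The deposited table holds raw counts per gene symbol, made by the authors. The submitters' processing notes name STAR 2.7.10a, featureCounts 2.0.1, Trim Galore 0.6.7, Picard 1.14 and the GRCm39 build, and do not say what each did. Annotation, strandedness and handling of multi-mapping reads were not given in the sources used here. Reads carry no molecular identifiers, so counting error is a lower limit.

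All genes were fitted with edgeR 4.0.16 in R 4.3.3 (filterByExpr with a minimum count of 10, TMM, robust glmQLFit, group alone), with SE as the log2 fold change over the root of F. The fit was tested on simulated data. Alternatives were other scalings and filters, DESeq2 1.42.0, limma 3.58.1 voom, the replicate block and leaving out each library. Identity scaling set each library to the median of 15 CD8 T cell genes. Exon lengths and overlaps come from GENCODE M21 on GRCm38, used for lengths and neighbours only, and promoters from RefSeq.

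Deviations from the group means correlated across genes at 0.366, 0.263 and 0.393 for same-numbered libraries, and at -0.276 to -0.0721 for others. The numbers were therefore taken to pair the samples, though the main fit used group alone and the pairing entered as the block alternative. The members and lists were chosen with earlier results of these data known. Named are all members, from each list up to 4 genes with the smallest p and further ones that passed, and the 5 closest profiles to Irf4, Irf7 and Irf8. No column was left out. Tcrg-C1 was not analysed here. Some genes are not reported here.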

Additional observations from a re-analysis of the deposited data

How the results depend on the processing

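Irf8 was called higher, with a positive log2 fold change, under all 16 alternatives (0.93 to 1.87, adjusted p at most 0.0476). The count of members called lower was 0 except for 2 with the CD8 identity scaling and 5 when that scaling was joined with the replicate block. For that joined fit the share of all genes called was not counted. Over all genes, 205 were higher and 898 lower, against 25 and 3927 with the identity scaling, 748 and 1599 with the replicate block, 401 and 1435 with DESeq2, and 396 and 1495 without a filter. The higher count was also 84 with library size alone and 331 with limma-voom. Leaving out 1 library gave 23 to 200 higher and 239 to 1044 lower genes. All 6 within-library ratios kept their direction without each library. The block alone changed no call of a member.

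Sign changes concerned values that did not pass without the change. With the identity scaling these were Irf2 (-0.51), Irf3 (-0.44), Irf4 (-0.47), Irf5 (-0.69), Irf2bpl (-0.68), Mavs (-0.29), Tyk2 (-0.11), Stat3 (-0.10), Ifngr1 (-0.18), Psmb8 (-0.14), Psmb9 (-0.13), Ikzf3 (-0.0020), Jund (-0.25), Lck (-0.038) and Lat (-0.25), and with the block added Irf2 (-0.52), Irf3 (-0.39), Irf4 (-0.48) and Irf5 (-0.67). With library size alone they were Irf5 (-0.14) and Irf2bpl (-0.13), with upper quartile scaling Irf2bpl (-0.021), and with limma-voom Irf5 (-0.21), Irf9 (0.14) and Irf2bpl (-0.083). Irf9 was 0.0028 with the block. Leaving out 1 library turned Irf5 (-0.15 to 0.32), Irf7 (-0.32 to 0.091), Irf9 (-0.14 to 0.11) and Irf2bpl (-0.31 to 0.25). Among members that kept their sign, Irf4 then ranged from 0.063 to 0.52 and Irf3 from 0.20 to 0.53. Irf2 ranged from 0.19 to 0.25 and Irf1 from -0.55 to -0.35. The identity scaling also moved the median over all genes to -0.69. For the others the cause was not tested.

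List counts, 0 to 3 at first, ranged up to 3 higher and 3 lower for receptors, JAK and STAT, 1 and 7 for nucleic acid sensing, 1 and 17 for ISGF3 targets, 2 and 5 for interferon gamma targets, 1 and 5 for partner factors, 4 and 3 for the antigen receptor pathway, 6 and 6 for IRF4 dependent genes, and 0 and 2 for the corepressors. Leaving out Biotin- replicate 3 also moved Ifngr1 to 0.35, and leaving out Biotin+ replicate 2 moved Lck to 0.47, Psmb9 to 0.39 and Jund to 0.30, each by over 1.5 times and none of them called in either fit.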
